A study of Saccharomyces cerevisiae with 12 samples.

Results

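The first 15 min without oxygen were read from a pair of 2-colour arrays, 1 of yeast in carbon monoxide (CO) and 1 of yeast in nitrogen (N2), which are 2 of the 12 arrays of a time course. Both were Saccharomyces cerevisiae BY4741, a haploid laboratory strain with deletions in HIS3, LEU2, MET17 and URA3, that had been grown on glucose, spread on nylon membranes over solid YP acetate and then closed under pure CO or pure N2. Each array set Cy5-labelled RNA of gas-exposed cells against Cy3-labelled RNA of cells left in room air for the same time, so the strain and the transfer from glucose to acetate were shared by both channels. The later arrays of each gas were taken at 30, 45, 60 and 120 min and at 24 h, with 1 array per gas and time, no dye swap and no repeat culture. Of the 6150 open reading frames (ORFs) in the table, 5991 had a value on both 15 min arrays and all of these were examined. The ORFs moved alike were those at least 1.5-fold from air, the same way, on both arrays, which came to 240 of 5991.

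Acetate cannot be fermented by yeast, so cells on acetate depend on respiration and stop dividing when oxygen is withdrawn. Oxygen reaches the yeast transcriptome partly through heme and sterols, whose synthesis needs oxygen, and partly through regulators of respiration such as the Hap complex and repressors of hypoxic genes such as Rox1 and Mot3. CO displaces oxygen and also binds reduced heme, and so differs from N2 in its chemistry while it removes oxygen in the same way.

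Values below are log2 ratios of gas over air. The labels give neither the log base nor the direction, so base 2 was taken from how far the values spread and the direction from the dyes, and a constant dye effect would stay in every ratio to air. At 15 min the arrays were narrow, with an SD over ORFs of 0.357 in CO and 0.374 in N2, against 1.2 and 1.27 at 24 h, and their medians lay at 0 and 0.01. HIS3, LEU2, MET17 and URA3, which are missing in whole or part, gave 15 min values of -0.24 to 0.67 as a background. The highest was URA3 in N2, past 1.5-fold on that array, with 0.25 in CO. The 2 arrays are different gases and are used here as the only repeat of anoxia, so a p-value at 15 min measures the spread between gases and not between cultures. The labels do not say whether the gases shared an air sample, and a shared one would make the arrays look more alike.

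With 2 arrays, the fit across all ORFs made no call. Limma's test of the mean against 0 with Benjamini-Hochberg adjustment called 0 of 5991 ORFs (0%), with a lowest adjusted p of 0.114. At an unadjusted p under 0.05 it listed 1810 ORFs, 962 higher and 848 lower. When the spread was shared with other times, 4 ORFs passed in a fit to all 12 arrays (TRF5, ALD6, JJJ3 and YJR027W) and 22 passed in a fit to the 8 arrays of 15 to 60 min, 15 higher and 7 lower. The 15 min values are therefore given as a description, and the test that bears on them is the one on the 6 arrays of 30, 45 and 60 min. Those arrays had no part in choosing the ORFs. They have the same dye orientation, however, so a constant dye effect at 15 min would be found again on them.

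The 240 ORFs were divided into 165 higher in both gases (2.75% of the ORFs examined) and 75 lower in both (1.25%), together 4.01%. At 2-fold the counts were 22 higher (0.367%) and 7 lower (0.117%). The 165 were 51.9% of the 318 ORFs at least 1.5-fold higher in CO and 45.3% of the 364 higher in N2. The 75 were 38.5% of the 195 ORFs lower in CO and 41.2% of the 182 lower in N2. Among the 240 the gases differed by -0.82 to 0.80 (CO minus N2), 21 differed by 1.5-fold or more and none by 2-fold. Over all 5991 ORFs, 41 differed by at least 2-fold, 22 higher in CO and 19 higher in N2, and the median size of the difference was 0.15. Just inside the 1.5-fold limit were YCR018C-A at 0.59 in CO and 1.07 in N2, FMP16 at 0.83 and 0.59, and CCC2 at -1.07 and -0.59. Just outside it were YBR071W at 0.72 in CO and 0.58 in N2, KRE29 at 0.58 and 0.72, and ECL1 at 0.58 and 0.59.

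**Figure D1:**
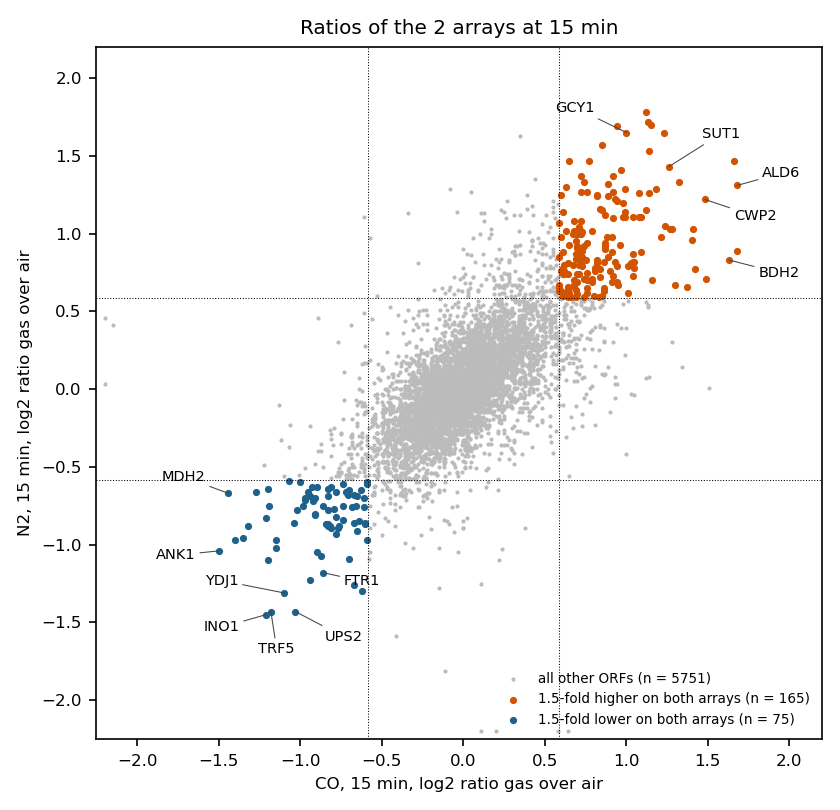
Each point is 1 of 5991 ORFs, with its log2 ratio of gas over air in CO at 15 min on the x axis and in N2 at 15 min on the y axis. Dotted lines mark 1.5-fold, orange and blue points are the 165 ORFs higher and the 75 lower on both arrays, the 12 named genes are examples, and 6 ORFs beyond -2.2 are drawn at the edge; the coloured points lie in the 2 corners where both gases moved the same way.

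Most of the ORFs chosen at 15 min that could be tested were called the same way at 30 to 60 min. In each count below of ORFs found again, the share was larger for the lower ones than for the higher ones, a difference that was not tested. Limma called 1360 of 5716 ORFs higher than air at 30 to 60 min (23.8%) and 1520 lower (26.6%), together 50.4%. Of the 165 ORFs higher at 15 min, 125 had a value on all 6 of these arrays, and 104 of them were called higher (83.2%), 20 were not called and 1, TOM5, was called lower. Of the 75 lower at 15 min, 73 could be tested, 70 were called lower (95.9%), 3 (CUZ1, YNL115C and HRP1) were not called and none was called higher. The median of the tested higher ORFs was 0.85 at 15 min and 0.89 at 30 to 60 min. The median of the tested lower ORFs was -0.82 at 15 min and -1.35 at 30 to 60 min. In that period 28 of the 73 lower ORFs were at least 1.5-fold further from air than at 15 min, against 7 of the 125 higher ORFs.

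Time by time, and without a test, the lower set again had the larger shares. Of the ORFs higher at 15 min with both values, those again at least 1.5-fold higher in both gases were 46.4% at 30 min, 52.2% at 45 min, 50% at 60 min, 60.8% at 120 min and 43.7% at 24 h. Among all ORFs the shares at that level were 4.14%, 5.52%, 9.66%, 14.6% and 19.5%. Of the ORFs lower at 15 min, those again 1.5-fold lower were 80.8%, 85.3%, 80%, 82.7% and 65.3%, against 5.02%, 10.1%, 14.2%, 18.3% and 25.1% of all ORFs. On all 10 later arrays 63 of 116 higher ORFs stayed above 0 (54.3%, with 13.3% among all ORFs) and 56 of 73 lower ORFs stayed below it (76.7%, with 17.6%). At 120 min 11 of 143 ORFs of the higher set were at least 1.5-fold lower than air in both gases, and 0 of 75 of the lower set were 1.5-fold higher. At 24 h 9 ORFs of the higher set were at least 1.5-fold lower than air in both gases, and 2 of the lower set, HAP4 and SIP4, were at least 1.5-fold higher.

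**Figure D2:**
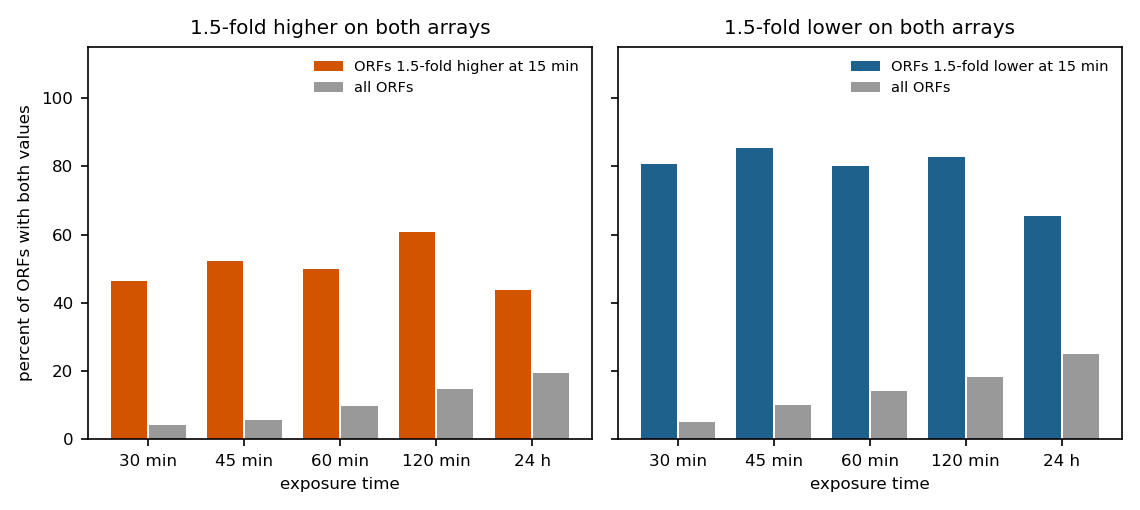
Bars give the percentage of ORFs with both values that were at least 1.5-fold higher (left) or lower (right) than air on both arrays at each later exposure time. Coloured bars are the ORFs that were so at 15 min and grey bars all ORFs; the lower set stayed between 65.3% and 85.3% and the higher set between 43.7% and 60.8%.

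Of 16 measured genes on a list of hypoxic genes, 3 were 1.5-fold higher in both gases at 15 min (SUT1, CPR1 and FET4) and none lower. Their share was 18.8%, with 2.75% of all ORFs, and the list's median was 0.13, against 0.01 over all ORFs. SUT1, a regulator that promotes sterol uptake, stood at 1.26 in CO and 1.43 in N2 at 15 min. Its 6 values at 30 to 60 min ran from 1.34 through a median of 1.52 to 2.11, with a mean of 1.60 ± 0.11 (mean ± SE, n = 6 arrays, limma adjusted p = 2.6e-05). At 120 min SUT1 reached 3.11 in CO and 2.13 in N2, and at 24 h it was at 1.61 and 1.47, so every array had it above 2-fold. FET4, a low-affinity transporter of iron and other metals that is known to be made under low oxygen, had 0.87 in CO and 0.90 in N2 at 15 min, a range of 0.63 to 1.15 at 30 to 60 min (0.89 ± 0.10, adjusted p = 0.000121), and 1.22 and 2.41 at 24 h. CPR1, the cyclophilin of the cytosol, had 0.79 and 1.02 at 15 min but was not called at 30 to 60 min, at 0.33 ± 0.15 (adjusted p = 0.0909).

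Other hypoxic genes were nearer air at 15 min. OLE1, the oxygen-using fatty acid desaturase, stood at -0.10 in CO and 0.12 in N2 at 15 min and rose later, with values of 0.05 to 2.91 and a mean of 1.11 ± 0.29 at 30 to 60 min (adjusted p = 0.00999). TIR1, a cell wall mannoprotein of anaerobic cells, had 0.49 and 0.40 at 15 min and averaged 0.66 ± 0.12 at 30 to 60 min (adjusted p = 0.0012). DAN1, another anaerobic mannoprotein gene, was at 0.17 and 0.18, and no later array took it beyond 0.45 in either direction. HEM13, the oxygen-using step of heme synthesis and a textbook hypoxic gene, was at -0.22 and -0.36 at 15 min. It averaged 0.81 ± 0.12 below air at 30 to 60 min (adjusted p = 0.000511).

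Among 14 measured oxygen and heme regulators, SUT1 alone was 1.5-fold higher at 15 min and HAP4 alone 1.5-fold lower. HAP4, the activating subunit that directs the Hap complex to respiratory genes, stood at -0.66 in CO and -0.75 in N2 at 15 min. It stayed low at 30 to 60 min, between -1.28 and -0.53 with a mean of -0.79 ± 0.11 (adjusted p = 0.000384), then lay at 0.07 and -0.05 at 120 min and at 1.79 and 2.03 at 24 h. The repressor genes were less alike in the gases: MOT3 had -0.82 in CO and -0.26 in N2, and ROX1 had -0.07 and -0.31. HAP1, the heme-dependent activator, was at -0.05 and 0.07, MGA2, the membrane-bound activator of OLE1, at -0.30 and -0.23, and UPC2, the sterol-sensing activator, at -0.64 and -0.08. YHB1, the flavohemoglobin that detoxifies nitric oxide, was above air on both arrays at 0.72 in CO and 0.54 in N2, and at 30 to 60 min its 3 CO values were 2.45 to 3.00 while its 3 N2 values were 0.59 to 1.00.

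**Figure D3:**
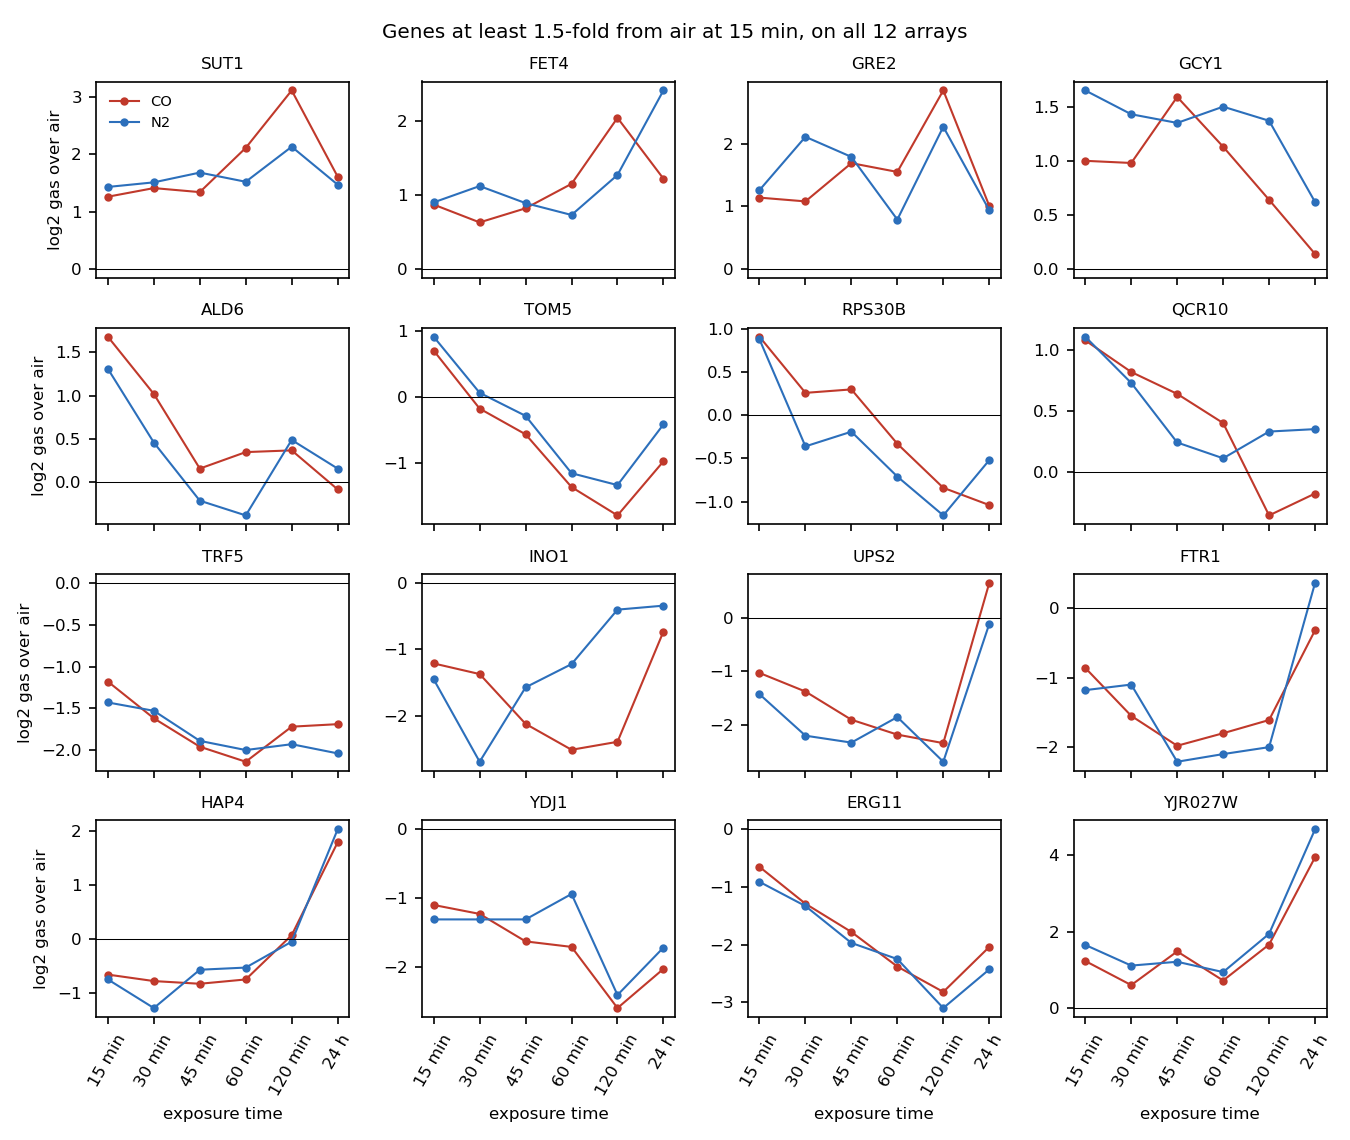
Log2 ratios of gas over air on all 12 arrays (CO red, N2 blue, 1 array per point) for 16 genes that were at least 1.5-fold from air at 15 min, against exposure time in order and not to scale; each panel has its own y scale. SUT1, FET4 and GRE2 stayed above 0 on every array, ALD6, TOM5, RPS30B and QCR10 were highest at 15 min, and TRF5, YDJ1 and ERG11 stayed below 0 throughout.

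The 15 ORFs with the highest 15 min means included GCY1, BDH2 and ALD6. GCY1, a glycerol dehydrogenase of the aldo-keto reductase family, had 1.00 in CO and 1.65 in N2, stayed at 0.98 to 1.59 for the next 45 min (1.33 ± 0.10, adjusted p = 2.87e-05) and was back at 0.14 and 0.62 at 24 h. GRE2, a stress-induced reductase, had 1.14 and 1.26 at 15 min and 0.79 to 2.11 at 30 to 60 min (1.5 ± 0.16, adjusted p = 9.84e-05). BDH2, which resembles butanediol dehydrogenase, had 1.63 in CO and 0.83 in N2 and averaged 1.5 ± 0.12 in the later period (adjusted p = 2.64e-05). ICY1, a gene of unclear role, had 0.85 and 1.57 and then averaged 1.88 ± 0.14 (adjusted p = 2.62e-05). These 4 genes kept the size they had at 15 min or exceeded it within the hour.

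ALD6 did not. This gene encodes the cytosolic aldehyde dehydrogenase that makes acetate, and it had the second highest mean of the 165, at 1.68 in CO and 1.31 in N2. Its values were 1.02 and 0.46 at 30 min, 0.16 and -0.21 at 45 min, 0.35 and -0.38 at 60 min, and it was not called over that period (0.23 ± 0.17, adjusted p = 0.262). All 6 of these values lay below both 15 min values, but the difference of 15 min from 30 to 60 min, 1.26 ± 0.32, did not pass after adjustment (adjusted p = 0.188). ATO2, a membrane protein of ammonium export whose family includes acetate carriers, had 0.89 and 1.24 at 15 min and averaged 1.24 ± 0.15 at 30 to 60 min (adjusted p = 0.000193). It was the only one of 13 measured genes of acetate use to be 1.5-fold higher in both gases.

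Most genes of the mitochondrial respiratory chain stood above air at 15 min. Of 25 measured, 4 were 1.5-fold higher in both gases (16%, with 2.75% of all ORFs) and none was lower. On both arrays 18 were above 0 (72%, with 38.2% of all ORFs), and the list median was 0.27. COX7, a subunit of cytochrome c oxidase, had 0.77 in CO and 1.47 in N2, and QCR10, a subunit of the cytochrome bc1 complex, had 1.08 and 1.11. CYC1, the main cytochrome c, had 0.82 and 1.24, and COX12, another oxidase subunit, had 0.60 and 0.98. QCR10 and COX12 were called higher at 30 to 60 min, at 0.49 ± 0.11 (adjusted p = 0.00578) and 0.68 ± 0.19 (adjusted p = 0.0124). COX7 was not, at 0.39 ± 0.16 (adjusted p = 0.0641), and CYC1 had only 5 of the 6 values, from -1.05 to 1.35. QCR10 was highest at 15 min and lower at each later time in turn up to 60 min, where CO had 0.40 and N2 0.11. ATP15, the epsilon subunit of the ATP synthase, had 0.69 and 0.87 at 15 min and 0.13 ± 0.15 later (adjusted p = 0.481). The gases parted in both lists after 15 min, a difference that was not tested. The median of the respiratory chain list was 0.23 in CO and 0.24 in N2 at 15 min, 0.81 and -0.19 at 30 min, 0.22 and 0.09 at 45 min, and 0.50 and -0.05 at 60 min. The median of 16 measured ATP synthase genes was 0.40 and 0.22 at 15 min, 0.61 and -0.12 at 30 min, 0.37 and 0 at 45 min, and 0.36 and 0.04 at 60 min. Up to 60 min it thus lay above air in CO, and from 30 to 60 min near air in N2. At 120 min both list medians were below air. The respiratory chain had -0.38 in CO and -0.07 in N2, and the ATP synthase had -0.76 and -0.26. At 24 h they were above air again, at 0.75 and 0.26 and at 0.79 and 0.86.

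A few genes of mitochondrial import and assembly are named here after their values were seen, without a count of the group they come from. None of 66 measured mitochondrial ribosomal protein genes, a list of its own, was 1.5-fold from air in both gases, and their median was 0.11. TOM5 and TOM6, small subunits of the outer membrane import pore, had 0.70 and 0.61 in CO and 0.91 and 0.78 in N2 at 15 min. TIM9 and TIM10, chaperones of the space between the membranes, had 0.76 and 0.60 in CO and 0.70 and 0.76 in N2. TOM5 was the 1 ORF of the higher set that was called lower at 30 to 60 min, at -0.59 ± 0.18 (adjusted p = 0.0226, values of -1.37 to 0.06), and it stood at -1.80 in CO and -1.34 in N2 at 120 min. TIM9 and TIM10 were not called at 30 to 60 min, at 0.09 ± 0.19 and 0.14 ± 0.21 (adjusted p = 0.726 and 0.606). COX19, a copper-binding assembly factor of cytochrome oxidase, had 0.86 and 0.65 at 15 min, 1.42 ± 0.17 at 30 to 60 min (adjusted p = 0.000152) and 2.75 and 2.62 at 120 min.

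Ribosomal protein genes and the genes that build ribosomes lay on opposite sides of air at 15 min and were mostly called lower afterwards. Of 131 measured ribosomal protein genes, 8 were 1.5-fold higher in both gases (6.11%, with 2.75% of all ORFs) and none 1.5-fold lower, 74 were above 0 on both arrays and 21 below it, and the median was 0.18. Of 74 measured ribosome biogenesis genes, none was 1.5-fold higher and 5 were lower (6.76%, with 1.25% of all ORFs), 2 were above 0 on both arrays and 61 below it, and the median was -0.36. The 2 above were UTP20 and UTP7. Over all ORFs 2286 of 5991 were above 0 on both arrays and 2146 below. Both medians kept their sign and moved by no more than 0.01 when the arrays were centred or quantile normalized.

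In the period of 30 to 60 min 85 of 122 ribosomal protein genes (69.7%, with 26.6% of all ORFs) were called lower and 4 higher (RPP1A, RPL30, RPL4B and RPL4A), with a median of -0.82, and 61 of 71 biogenesis genes (85.9%) were called lower and none higher, with a median of -0.79. In 72 of the 122 ribosomal protein genes (59%) both 15 min values lay above all 6 later ones, against 11.5% of all ORFs, and in none did both lie below. In the biogenesis list both 15 min values lay above all 6 later ones in 29 of 71 genes (40.8%). The list median of the ribosomal proteins was 0.26 in CO and 0.12 in N2 at 15 min, -0.14 and -0.77 at 30 min, -0.58 and -0.93 at 45 min, -1.21 and -0.82 at 60 min, and -2.04 and -1.77 at 120 min. At 30 and 45 min the N2 median was the lower of the pair, and at 60 and 120 min the CO median was.

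**Figure D4:**
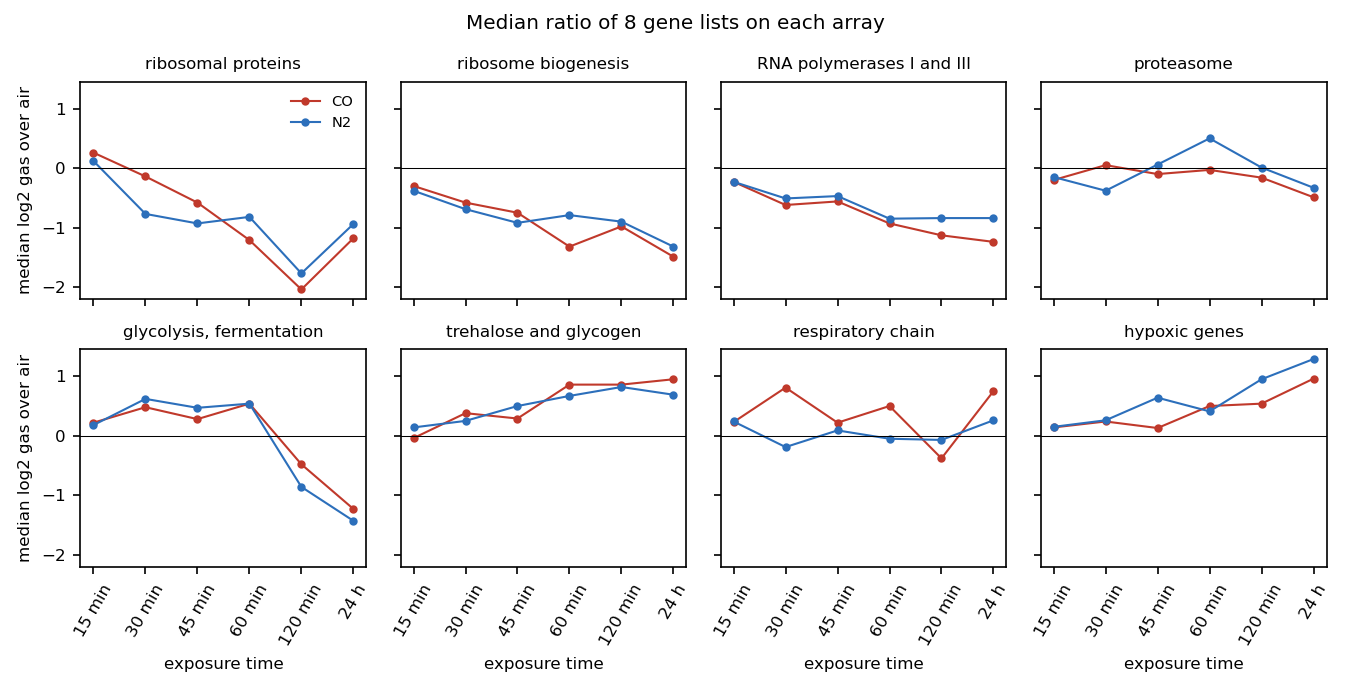
Median log2 ratio of gas over air of 8 gene lists on each of the 12 arrays (CO red, N2 blue) against exposure time in order and not to scale, over the members with a value on that array. Ribosomal proteins start above 0 at 0.26 and 0.12 and pass below it, ribosome biogenesis starts below 0, and the list of trehalose and glycogen genes starts near 0 and climbs.

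The 8 ribosomal protein genes were RPL41B, RPP2B, RPP2A, RPS30B, RPL29, RPP0, RPS29A and RPL37B, and 3 of them encode the acidic stalk of the large subunit. RPS30B showed the turn most plainly, with 0.91 in CO and 0.88 in N2 at 15 min, a range of -0.71 to 0.30 at 30 to 60 min (-0.17 ± 0.14, adjusted p = 0.322), and -0.84 and -1.16 at 120 min. RPP0, the stalk's base, had 0.82 and 0.83 at 15 min, -0.85 to 1.00 at 30 to 60 min, and -1.33 and -1.79 at 120 min. RPL41B had the highest 15 min mean of the list, with 1.14 and 1.53, and -2.39 and -0.73 at 24 h. None of the 5 that could be tested was called at 30 to 60 min, which are RPP2A, RPS30B, RPL29, RPP0 and RPL37B. Near-identical copies of ribosomal protein genes may share signal on an array, so a value here may belong to a pair. The gene with the largest 15 min value in size on this list, RPL3, had 0.11 in CO and -3.58 in N2, an isolated value that no other array came near.

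The 5 biogenesis genes lower at 15 min were UTP6, UTP15, UTP13, UTP23 and RRP9, which belong to the small-subunit processome or its assembly. UTP6 had -0.83 in CO and -0.87 in N2 at 15 min, -2.58 to -1.05 at 30 to 60 min (-1.94 ± 0.17, adjusted p = 4.29e-05) and -3.55 and -3.42 at 24 h. UTP13 had -0.60 and -0.86 at 15 min and averaged 1.61 ± 0.13 below air at 30 to 60 min (adjusted p = 3.31e-05). All 5 were called lower in that period and stayed below 0 on every array.

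RNA polymerases I and III, which transcribe ribosomal RNA and transfer RNA, were lower too. Of 19 measured subunits and factors, 4 were 1.5-fold lower at 15 min (21.1%, with 1.25% of all ORFs), none higher, and the median was -0.25. RPA49, a subunit of polymerase I, had -0.87 in CO and -1.07 in N2 and then -3.16 to -1.59 (-2.13 ± 0.19, adjusted p = 3.9e-05). RPA12 had -1.04 and -0.86, RPC82 of polymerase III had -0.74 and -0.84, and RRN3, the initiation factor of polymerase I, had -0.63 and -0.65. RRN3 was nearer air at 30 to 60 min than at 15 min, at -0.37 ± 0.11 (adjusted p = 0.0183), while RPA12 and RPC82 were further from it, at -1.58 ± 0.20 and -1.35 ± 0.11 (adjusted p = 0.000239 and 3.44e-05).

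Other genes among the lowest at 15 min act on RNA, on chaperone function and on lipids. TRF5, a poly(A) polymerase of the nuclear surveillance complex, had -1.18 in CO and -1.43 in N2 at 15 min. It averaged 1.86 ± 0.11 below air at 30 to 60 min, with values of -2.14 to -1.53 (adjusted p = 1.98e-05). It was still at -1.69 and -2.04 at 24 h. INO1, the inositol phosphate synthase at the head of inositol and phosphatidylinositol synthesis, had the lowest mean of all 75, with -1.21 and -1.45. It averaged 1.91 ± 0.19 below air at 30 to 60 min (adjusted p = 7.45e-05) and at 120 min its gases parted, at -2.39 in CO and -0.40 in N2. UPS2, which carries phosphatidylserine between mitochondrial membranes, had -1.03 and -1.43 at 15 min. It averaged 1.98 ± 0.13 below air at 30 to 60 min (adjusted p = 2.12e-05) and was at 0.66 and -0.11 at 24 h.

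A few cytosolic chaperones were lower and a mitochondrial one higher. Of 25 measured heat-shock and chaperone genes, 3 were 1.5-fold lower at 15 min (12%, with 1.25% of all ORFs), 1 was higher (4%, with 2.75%), and the median was -0.07. YDJ1, the main cytosolic J-protein, had -1.10 in CO and -1.31 in N2 at 15 min, -1.71 to -0.94 at 30 to 60 min (-1.36 ± 0.11, adjusted p = 3.44e-05) and -2.60 and -2.41 at 120 min. SIS1, another J-protein, had -0.67 and -0.68, and HSC82, the constitutive Hsp90, had -0.82 and -0.88; both were called lower at 30 to 60 min. JJJ3, a J-protein of diphthamide synthesis outside the list, had -1.15 and -0.97 and later averaged 1.68 ± 0.11 below air (adjusted p = 2.12e-05). HSP10, the mitochondrial co-chaperonin, had 1.09 and 1.11 at 15 min, was still higher at 0.72 ± 0.12 at 30 to 60 min (adjusted p = 0.000749), and stood at -0.34 and -0.19 at 120 min.

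Of 25 measured genes of iron uptake, FIT2 and FET4 were 1.5-fold higher at 15 min (8%, with 2.75% of all ORFs) and FTR1 and CCC2 were lower (8%, with 1.25%). The list's median was 0.24. FIT2, a cell wall mannoprotein that retains iron-siderophores, had 0.98 in CO and 1.20 in N2 and averaged 1.35 ± 0.15 at 30 to 60 min (adjusted p = 0.000118). FTR1, the permease of the high-affinity system that needs the oxygen-using ferroxidase Fet3, had -0.86 and -1.18 at 15 min. It averaged 1.79 ± 0.14 below air at 30 to 60 min (adjusted p = 3.02e-05). CCC2, the pump that loads copper into that ferroxidase, had -1.07 and -0.59 and later averaged 1.27 ± 0.15 below air (adjusted p = 0.000165). By 24 h FTR1 was at -0.32 and 0.36 and CCC2 at -0.57 and -0.43. MRS4, a mitochondrial iron carrier outside the list, had 0.63 and 1.30 at 15 min and averaged 1.31 ± 0.11 at 30 to 60 min (adjusted p = 3.02e-05).

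In sterol synthesis ERG11, the heme enzyme that demethylates lanosterol, was the only one of 24 measured genes to pass 1.5-fold at 15 min, with -0.65 in CO and -0.91 in N2. It was called lower later, with -2.38 to -1.29 at 30 to 60 min (-1.83 ± 0.15, adjusted p = 3.44e-05) and -2.82 and -3.10 at 120 min. In the list of the tricarboxylic acid and glyoxylate cycles MDH2, the cytosolic malate dehydrogenase, was the only one of 21 past the limit, with -1.44 and -0.67. It averaged 1.66 ± 0.19 below air at 30 to 60 min (adjusted p = 0.00014). In amino acid synthesis the activator GCN4 was higher, with 0.96 and 0.93 and a later mean of 0.57 ± 0.09 (adjusted p = 0.000858), while ARG3 of the arginine pathway was lower, with -0.94 and -1.23 and a later mean of -1.09 ± 0.20 (adjusted p = 0.00173). They were the only ones of 36 measured genes of that list to pass 1.5-fold in both gases.

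Glycolytic genes lay slightly above air at 15 min, and 13 were called higher within the hour. Of 24 measured genes of glycolysis and fermentation, GPM1 and PGI1 were 1.5-fold higher in both gases (8.33%, with 2.75% of all ORFs). On both arrays 18 were above 0 (75%, with 38.2% of all ORFs) and 1 was below (HXK1), and the median was 0.21. GPM1, the phosphoglycerate mutase, had 1.01 in CO and 0.79 in N2 and averaged 1.16 ± 0.16 at 30 to 60 min (adjusted p = 0.000365). PGI1, the phosphoglucose isomerase, had 0.82 and 0.81 at 15 min, was not called at 30 to 60 min (0.29 ± 0.12, adjusted p = 0.072), and stood at -2.07 and -1.71 at 24 h. At 30 to 60 min 13 of the 24 were called higher (54.2%, with 23.8% of all ORFs) and 2 lower (PFK1 and PFK2; 8.33%, with 26.6%), with a median of 0.45, while at 24 h the list median was -1.41. HXT6, a high-affinity glucose transporter, had 0.64 and 0.59 at 15 min and 4.31 and 4.99 at 24 h.

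Genes of reserve carbohydrates were near air at 15 min and were called later. None of 18 measured genes of trehalose and glycogen was 1.5-fold from air in both gases, and their median was 0.01. At 30 to 60 min 11 were called higher (61.1%, with 23.8% of all ORFs) and 1 lower (TPS3), and in 8 of the 18 (44.4%) both 15 min values lay below all 6 later ones, against 6.84% of all ORFs. GLC3, the glycogen branching enzyme, had 0.14 in CO and 0.35 in N2 at 15 min and 0.93 to 1.99 at 30 to 60 min (1.32 ± 0.14, limma adjusted p = 9.08e-05). The general stress list gave 3 of 20 measured genes higher at 15 min (15%, with 2.75% of all ORFs), GRE2, DDR2 and HOR7, with a median of 0.17. DDR2, a multistress protein gene, had 1.28 and 1.03 at 15 min and averaged 1.11 ± 0.17 at 30 to 60 min (adjusted p = 0.000504).

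Of 24 measured cell wall genes, CWP2 and HSP150 were 1.5-fold higher in both gases (8.33%, with 2.75% of all ORFs). On both arrays 21 were above 0 (87.5%, with 38.2% of all ORFs), and the median was 0.32. CWP2, a major mannoprotein, had 1.48 in CO and 1.22 in N2 at 15 min, 0.46 to 1.12 at 30 to 60 min (0.79 ± 0.11, adjusted p = 0.000307), and 0.06 and 1.41 at 24 h. HSP150, a secreted mannoprotein of the PIR family, had 1.16 and 0.70 at 15 min, was called higher later at 0.68 ± 0.11 (adjusted p = 0.000663), and turned to -3.37 and -3.27 at 24 h. PUN1, a plasma membrane protein, had 0.94 and 0.79 at 15 min, averaged 1.94 ± 0.17 at 30 to 60 min (adjusted p = 4.08e-05), and was at -0.92 and -2.62 at 24 h.

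Of the early secretory route, 4 genes are named after their values were seen, again without a count of the group. SBH2 and SBH1, small subunits of the translocation channel of the endoplasmic reticulum, had 0.95 and 0.70 in CO and 0.67 and 1.00 in N2. SEC63, a J-protein subunit of the same machinery, had -0.81 and -0.89. Later, at 30 to 60 min, SBH2 was higher at 0.94 ± 0.13 (adjusted p = 0.000324), SBH1 was not called at 0.10 ± 0.31 (adjusted p = 0.82), and SEC63 averaged 1.93 ± 0.14 below air (adjusted p = 2.62e-05). HAC1, the transcription factor of the unfolded protein response, had 0.59 and 0.65 at 15 min. Its mean against air at 30 to 60 min was 1.37 ± 0.16 (adjusted p = 0.000138).

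Another 4 members of the higher set, named after their values were seen, are known from mating cells, and no list of mating genes was counted. MFA1 and MFA2, which encode the a-factor pheromone, had 0.74 and 1.41 in CO and 1.33 and 1.03 in N2. AGA2 and FIG2, adhesins of mating cells, had 0.74 and 0.65 in CO and 0.59 and 0.65 in N2. MFA1, AGA2 and FIG2 were called higher at 30 to 60 min, at 0.93 ± 0.21, 0.49 ± 0.10 and 0.64 ± 0.11 (adjusted p = 0.00448, 0.00281 and 0.00104), while MFA2 had 4 of the 6 values, from -1.14 to 1.81.

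The higher set held many ORFs without a gene in the annotation used for names. These were 43 of the 165 (26.1%), against 3 of the 75 lower ORFs (4%) and 7.11% of all ORFs at 15 min. A missing value on at least 1 later array was also commoner in the higher set, at 49 of 165 (29.7%), against 2 of 75 (2.67%) and 5.32% of all ORFs, and its part in the result was not tested. YGR290W had the highest mean of all, with 1.66 in CO and 1.47 in N2, but 4 values of -3.24 to 1.5 at 30 to 60 min. YER138C, YJR027W and YML039W had 1.12, 1.23 and 1.13 in CO and 1.78, 1.65 and 1.72 in N2 at 15 min. They were called higher at 30 to 60 min, at 1.00 ± 0.14, 1.01 ± 0.12 and 0.72 ± 0.18 (adjusted p = 0.000319, 0.000179 and 0.00706), and lay between 3.83 and 4.80 at 24 h. Their values ran close together, as at 120 min with 1.62, 1.66 and 1.71 in CO and 1.93, 1.94 and 2.06 in N2. Other ORFs of the higher set were as high at 24 h. YMR046W-A, YBL100W-B, YER138W-A and YCR018C-A had 3.90, 3.72, 5.25 and 3.87 in CO, and 4.89, 4.49, 5.04 and 4.59 in N2. Whether the probes of all these ORFs share signal was not tested, so they may not be separate observations.

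Some of these ORFs have a neighbouring number to a named gene of the same set. Of 36 unmatched higher ORFs whose names carry a plain number, 8 stood next to a matched higher gene (22.2%), against 23 of 361 unmatched ORFs in all (6.37%). The pairs were YDR230W with COX20, YDR327W with SKP1, YJL067W with MPM1, YKL153W with GPM1, YLR230W with CDC42, YLR252W with SYM1, YOL150C with GRE2, and YOR121C with GCY1 and PFY1. Probes of such ORFs may read the same transcript as the named gene if they overlap, which was not tested.

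No ORF was called as different between 15 min and the rest of the first hour. The difference of the 2 arrays at 15 min from the 6 at 30 to 60 min, in which a constant dye effect cancels, was called for 0 of 5714 ORFs by limma (0%; lowest adjusted p = 0.156), while 799 had an unadjusted p under 0.05, 578 higher at 15 min and 221 lower. With quantile normalization 15 ORFs were called, all higher at 15 min, and 10 of them were ribosomal protein genes, of which RPL33B had the lowest adjusted p (0.00626). TOM5 and RPS30B were the only ORFs of the 240 among the 15. Without the CO array at 15 min the difference was -3.86 for RPL3, -4.47 for HUB1 and 2.49 for UTP22. Without the N2 array at 15 min it was -6.66 for RRP1 and -3.12 for YPL044C. The gases had these ORFs on opposite sides of air at 15 min, so by definition none could be among the 240.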

How the data were processed

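RNA was measured on 2-colour arrays, and the deposited values are log2 ratios, 1 per ORF and array, calculated by the authors. No label states the log base, direction, background correction or centring; base 2 and gas (Cy5) over air (Cy3) were assumed, and the values were used as deposited. ORFs were named through the locus tags or unique synonyms of the R64 annotation, which matched 5666 of 6150.

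Ratios were tested against 0 with limma 3.58.1 (lmFit and eBayes, R 4.3.3), with Benjamini-Hochberg adjustment over all ORFs having values on the arrays used and a threshold of 0.05. The difference of 15 min from 30 to 60 min used 8 arrays. The fits were run on simulated data with known changes, and only the mean estimate of the changed ORFs was required to be near its true size. That check set no limit on missed or false calls, and its simulated arrays were independent, with no shared air sample. Arrays of different times or gases are not true replicates, and so few arrays limit the precision.

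The ORFs described and the gene lists were chosen with earlier results of these data known. The rule for named genes took the 15 highest and 15 lowest means among called ORFs at least 1.5-fold on both arrays; none was called, so the call was dropped from the rule after that count was seen. List members past 1.5-fold and a fixed set of regulators were also named, and other genes were chosen after their values were seen.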

Additional observations from a re-analysis of the deposited data

Results flagged for a closer look

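Some genes stood on 1 side of air on both 15 min arrays and on the other side on both 24 h arrays, and these reversals were not tested. They included 20 of 135 ORFs of the higher set with both values at 24 h, and 4 of 75 of the lower set. The genes given here are examples and not the largest reversals. HSP150 went from 1.16 in CO and 0.70 in N2 at 15 min to -3.37 and -3.27 at 24 h. The 24 h mean minus the 15 min mean was -2.90 for RPL41B, -2.63 for PUN1, -1.68 for RPS30B and -1.5 for TOM5, which were high early, and 2.62 for HAP4, which was low early. MGA2 had a difference of 1.39, with 1.03 in CO and 1.22 in N2 at 24 h. DAN1 had -0.30, with all 4 values within 0.20 of air.

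On single ORFs the gases were on opposite sides of air at 15 min, and with 1 array per gas these differences were not tested. CO minus N2 was -6.87 for RRP1, -3.33 for YPL044C, -2.56 for ZPS1 and -1.72 for RPC10. It was 5.35 for IES4, 5.31 for COS10, 4.64 for HUB1 and 3.69 for RPL3. RRP1 had -6.41 in CO at 15 min and lay between -0.33 and 1.34 on its other 11 arrays. The 240 ORFs moved the same way in both gases by definition, so none of these 8 could be among them.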

How the results depend on the processing

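At 15 min the count of 0 calls held with median centring, quantile normalization, a robust prior and ORFs with all 12 values. It became 4 with all 12 arrays and 1 mean per time, and 22 with the 8 arrays of 15 to 60 min, a fit chosen after seeing the data. With 1 of the 15 min arrays left out the spread could come only from other times. Such a fit does not repeat the test on 2 arrays. The 240 ORFs became 29 at 2-fold, 237 with centring and 244 with quantile normalization. For 15 min against 30 to 60 min the count of 0 became 15 with quantile normalization and 0 to 3 without 1 of the 15 min arrays, and it stayed 0 with centring and with 12 arrays. The gases share exposure times, and with gas as a replicate block that count was 0 (lowest adjusted p = 0.18). At 30 to 60 min, 2880 calls became 2387 to 2721 without 1 array and 2897 with centring; of the ORFs chosen at 15 min, 99 to 111 of the higher and 68 to 71 of the lower were then called the same way.

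Of 350 values of 45 named genes under these settings, 4 changed sign, all near 0: HIS3 at 0.08 and LEU2 at 0.03 without the CO array, and OLE1 at -0.10 and HAP1 at -0.05 without the N2 array. The cause was not tested. The limits are 1 array per gas and time, no dye swap, unknown signal over background and unstated sharing of air samples between the gases.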

Other observations

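Of 30 measured proteasome genes, 20 were below 0 on both arrays (66.7%, with 35.8% of all ORFs) and 4 above (PRE3, PRE8, PUP1 and PRE4), with a median of -0.20, and none was 1.5-fold from air in both gases. RPN5, a subunit of the regulatory lid, had -0.43 in CO and -0.45 in N2. At 30 to 60 min 1 gene of the list was called higher (PRE3, 0.48 ± 0.12, limma adjusted p = 0.0077) and 4 lower (RPN7, PRE1, RPN1 and RPN9), and in none did both 15 min values lie below all 6 later ones.

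Of 26 measured genes of nitrogen use, permeases and enzymes, 20 were above 0 on both arrays (76.9%, with 38.2% of all ORFs), with a median of 0.23 and none 1.5-fold in both gases. MEP1, an ammonium permease, had 0.80 in CO and 0.52 in N2 and averaged 1.31 ± 0.09 at 30 to 60 min (limma adjusted p = 2.6e-05). GAP1, the general amino acid permease, had 0.12 and 0.87 and later averaged 0.99 ± 0.12 (adjusted p = 0.000175). Of 19 measured seripauperins, cell wall genes of anaerobic cells, 15 were above 0 on both arrays (78.9%), with a median of 0.23, none was 1.5-fold in both gases, and 11 of 18 were called higher at 30 to 60 min (61.1%, with 23.8% of all ORFs).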
